A study of Mus musculus with 9 samples.

Results

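The heat shock and endoplasmic reticulum chaperones are 39 genes of a count table of the mouse substantia nigra. They were chosen by symbol, from a list of known chaperones and related genes, out of the 20591 genes of the table. All 39 were present in the table and all 39 were tested. They were described in 3 classes: 18 genes of the cytosol, 18 genes of the endoplasmic reticulum, and 3 genes of the mitochondrial matrix. The cytosolic class includes the heat shock factor Hsf1. The reticulum class includes the transcription factor Xbp1 and the degradation genes Herpud1 and Sel1l. The libraries came from wild type C57BL/6 mice, 12 weeks old, that had undergone a sham operation, and the labels give no further allele or agent for any group. Of the 9 libraries, 3 were from mice fed ad libitum for 1 week, 3 from mice fasted once for 24 hours (the 1 day group) and 3 from mice kept for 1 week on intermittent fasting with 3 fasts of 24 hours (the 1 week group). Ad libitum mice were moved between cages like the fasted mice, and every group had free access to water. How long after a fast the tissue was taken is not stated in the labels. Nor do they state whether libraries are from different mice, and p-values then measure only library-to-library spread, which may be technical.

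Cytosolic chaperones of the Hsp70 and Hsp90 families hold unfolded proteins and help them fold. J-domain proteins deliver clients to Hsp70 and start its ATP cycle, while small heat shock proteins hold clients without using ATP. Many of these genes are transcribed under Hsf1, which binds repeats of the letters GAA and TTC, the heat shock element, when unfolded protein builds up in the cytosol. Chaperones of the endoplasmic reticulum serve secreted and membrane proteins, and many are transcribed under ATF6 and XBP1, which act in the unfolded protein response, in part through the ER stress element. In neurons both systems are studied because of their handling of proteins that aggregate, alpha-synuclein among them.

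The promoters are shown because the elements were found in different classes, though only in part of the cytosolic and reticulum members. Members were chosen as known genes of these systems, so this split may not be independent of the choice. RefSeq promoter sequences (build GRCm38.p6) were found for 31 of the 39 members, and the 250 bases before the start site were searched on both strands. The ER stress element was searched as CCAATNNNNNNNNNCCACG, which holds the CCAAT box and the letters CCACG. It was present in 7 of 16 reticulum members with a promoter (Hspa5, Hsp90b1, Calr, Canx, Pdia6, Dnajc3 and Creld2), in 0 of 13 cytosolic members, in 0 of 2 mitochondrial members and in 0.113% of all 32851 promoters. A related form, ATTGGNCCACG, stood before Herpud1 and in 0.0304% of all promoters. A heat shock element of 2 units, GAANNTTC or TTCNNGAA, was found in 6 of 13 cytosolic members (Hspa1a, Hspa1b, Hsph1, Dnaja1, Dnajb4 and Hspb1), in 2 of 2 mitochondrial members, in 0 of 16 reticulum members and in 12.8% of all promoters. The form of 3 units, GAANNTTCNNGAA or TTCNNGAANNTTC, contains the shorter one. It was found before Hspd1 and Hspe1, which share a window between their start sites, and in 0.466% of all promoters. Members were counted by gene, where a match in any promoter of the gene sufficed. Counted so, the 2-unit and 3-unit heat shock elements were in 14.5% and 0.514% of all 27025 genes. The ER stress element and its related form were in 0.13% and 0.037%. These are matches of letters, not measured binding. In the examples, written 5′ to 3′ on the gene's strand, the capitals mark the matched element and the lower case its 20 flanking bases on each side.
Hspa1a (cytosolic, chr17:34972233-34972280, minus strand): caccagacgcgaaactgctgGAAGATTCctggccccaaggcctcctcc
Hsph1 (cytosolic, chr5:149636342-149636389, minus strand): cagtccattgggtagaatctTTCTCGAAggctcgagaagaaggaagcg
Hspb1 (cytosolic, chr5:135887782-135887849, plus strand): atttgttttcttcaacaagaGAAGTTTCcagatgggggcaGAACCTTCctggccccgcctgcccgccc
Hspe1 (mitochondrial, chr1:55088039-55088096, plus strand): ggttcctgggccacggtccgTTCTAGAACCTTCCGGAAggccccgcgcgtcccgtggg
Hspa5 (reticulum, chr2:34772005-34772063, plus strand): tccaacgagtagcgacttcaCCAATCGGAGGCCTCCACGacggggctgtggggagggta
Calr (reticulum, chr8:84847055-84847113, minus strand): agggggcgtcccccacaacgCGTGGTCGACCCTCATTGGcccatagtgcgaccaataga
Canx (reticulum, chr11:50325780-50325838, minus strand): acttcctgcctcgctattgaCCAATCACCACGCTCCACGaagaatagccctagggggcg
Pdia6 (reticulum, chr12:17266471-17266529, plus strand): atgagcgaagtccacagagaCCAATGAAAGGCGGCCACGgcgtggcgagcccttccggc
Herpud1 (reticulum, chr8:94386357-94386407, plus strand): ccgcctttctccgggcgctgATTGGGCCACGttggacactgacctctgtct
The window of Hspb1 holds 2 separate elements, and in Calr the ER stress element lies on the opposite strand. Hspa1b has the same 48 letters as Hspa1a, at chr17:34959315-34959362.

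Levels are given in CPM, the read count of a gene scaled to the library's effective size, with the libraries of a group in the order of replicates 1 to 3. Library totals ranged from 36109995 to 54248856 counts. The dopaminergic markers Th, which makes the dopamine precursor, and Slc6a3, the dopamine transporter, were present in all 9 libraries, at 76.1 to 296 CPM and 184 to 526 CPM. None of the markers of other cell types tested was at 0 in any library. The second replicates of both fasted groups, 1 day replicate 2 and 1 week replicate 2, differed from the other libraries: their quality weights in limma were 0.213 and 0.507, against 0.972 to 1.93 elsewhere. They also had the smallest shares of counts from mitochondrial genes, 2.39% and 2.13%, against 2.89% to 4.88%. Many chaperones had extreme values in these libraries. The 1 day replicate 2 library had the highest level of its group for 15 of 18 reticulum, 11 of 18 cytosolic and 3 of 3 mitochondrial members, and for the 1 week replicate 2 library the counts were 12 of 18, 10 of 18 and 3 of 3. They were the highest of their groups for 38.5% and 36.9% of all genes tested. On the low side, the 1 day library was the lowest of its group for 2 reticulum and 7 cytosolic members and the 1 week library for 6 and 7, against 41.2% and 39.5% of all genes. Single-member fold changes given against ad libitum that turned sign or moved by over 1.5 times in a fit without both libraries are also given from that fit, called the fit on 7 libraries. It was a choice made after seeing the data, and the part these libraries play was not tested.

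**Figure D1:**
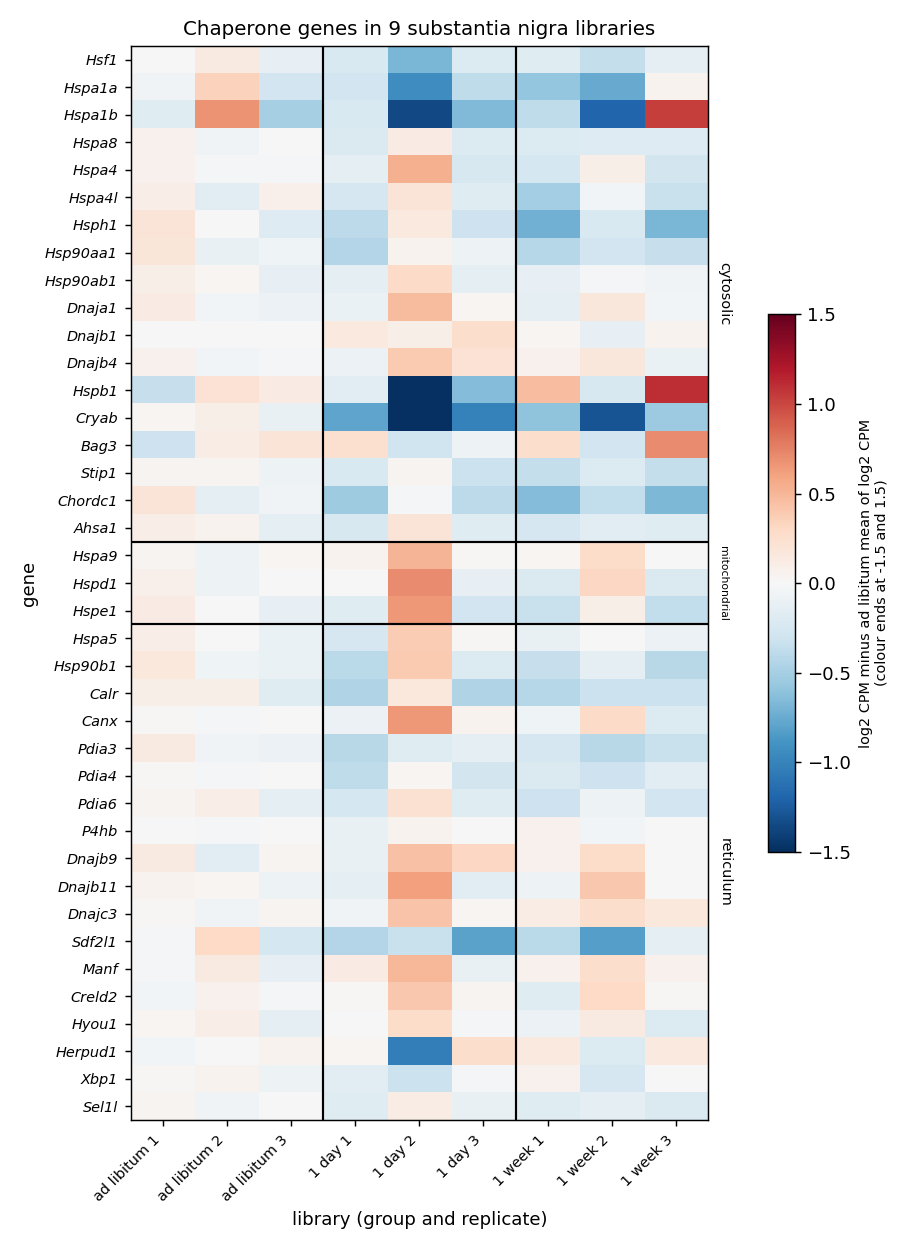
Level of each of the 39 members in each of the 9 libraries, as the log2 difference from the mean of the 3 ad libitum libraries, with cytosolic, mitochondrial and reticulum members in separate blocks. Cryab is below the ad libitum mean in all 6 fasted libraries, and the column of 1 day replicate 2 is above the ad libitum mean for 14 of 18 reticulum members.

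Scaled to transcript length (CPM per kilobase of the longest coding transcript, GENCODE M21), levels differed widely between members in the ad libitum group. Hspa8, the constitutive cytosolic Hsp70, was highest at 712 ± 27.8 CPM per kilobase (SD, n = 3), followed by the Hsp90 genes Hsp90ab1 at 480 ± 34.1 and Hsp90aa1 at 247 ± 28.4, all CPM per kilobase and 3 libraries each. The highest reticulum members on this scale were the lectins Calr at 125 ± 13.3 and Canx at 120 ± 2.1 CPM per kilobase, which differed by less than the SD of Calr. Hspa1a and Hspa1b, the inducible Hsp70 genes, were the lowest of the 39 at 4.70 ± 1.05 and 2.24 ± 0.994 CPM per kilobase.

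The tests asked whether a member differed between groups by more than the libraries within groups did. With edgeR's quasi-likelihood test and Benjamini-Hochberg adjustment over all genes, 0 of 39 members passed an adjusted p of 0.05 in any of the 3 comparisons, where 0.0584% of all genes passed for 1 day against ad libitum, 0.307% for 1 week against ad libitum and 0% for 1 week against 1 day. Both fasting comparisons use the same ad libitum libraries, so they are not independent. At an unadjusted p below 0.05, 4 members were lower in the 1 day group (Cryab, Hsf1, Sdf2l1 and Pdia3) and 0 were higher, which is 10.3% of members beside 9.27% of all genes. In the 1 week group, compared with ad libitum, 6 members were lower (Chordc1, Pdia3, Hsph1, Cryab, Stip1 and Hsp90aa1) and 0 higher, which is 15.4% of members beside 11.2% of all genes. Between the fasted groups, Hspb1 alone was higher at that level, beside 5.22% of all genes.

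Other tools gave few calls among the members too. DESeq2 called 1 member in the 1 day comparison, Cryab, and 0 in the others, where it called 0.928%, 2.36% and 0.0146% of all genes in the order 1 day against ad libitum, 1 week against ad libitum and 1 week against 1 day. With limma's voom and quality weights, which give the libraries that stand apart less weight, 1 member, Chordc1, was called for 1 week against ad libitum, and 0 in the others, beside 0.278%, 1.06% and 0% of genes in the same order. Without the replicate 2 libraries of both fasted groups, edgeR called 1 member, Cryab in the 1 day comparison, beside 0.243%, 0.341% and 0% of genes.

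The cytosolic class had a median log2 fold change of -0.12 for 1 day against ad libitum and -0.20 for 1 week against ad libitum, while the median over all genes tested was 0.00041 and -0.0013. In each of these comparisons 13 of 18 cytosolic members had a negative fold change. The reticulum class had medians of -0.03 and -0.05, with 10 of 18 members negative in each. Of all 20535 genes tested, 10250 were negative for 1 day and 10312 for 1 week against ad libitum. The 3 mitochondrial members had medians of 0.21 and -0.02. Between the fasted groups, 1 week minus 1 day, the medians were -0.14 for the cytosolic, -0.10 for the reticulum and -0.26 for the mitochondrial class. These class values depended on single libraries: in the fit on 7 libraries the cytosolic medians were -0.22 and -0.20 for 1 day and 1 week against ad libitum, the reticulum medians -0.10 and -0.11 and the mitochondrial medians -0.07 and -0.21. Between the fasted groups they were then -0.02, 0.01 and -0.11, with 0.01 over all genes. Other libraries moved the 1 day medians the other way: without 1 day replicate 1 they were -0.05 for the cytosolic and 0.08 for the reticulum class, without 1 day replicate 3 -0.055 and 0.03, and without ad libitum replicate 1 -0.07 and 0.02.

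**Figure D2:**
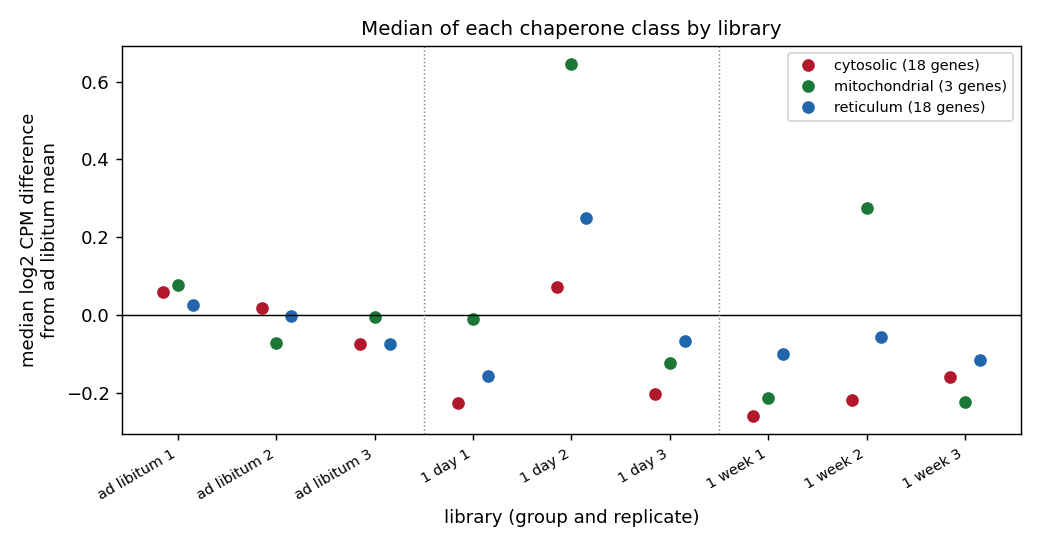
Median log2 difference of each class from the ad libitum mean in each library (one point per library, 18 cytosolic, 18 reticulum and 3 mitochondrial members). The reticulum median is highest in 1 day replicate 2, at 0.25, while the other fasted libraries lie between -0.16 and -0.06.

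The number of members that differed at the unadjusted level also moved with single libraries, in both directions. The 4 members of the 1 day comparison were 1 without ad libitum replicate 1, 1 without ad libitum replicate 2, 2 without 1 week replicate 1 and 8 without 1 day replicate 2. All genes at that level were 1904 of 20535 in the main fit. In these fits, in the same order, they were 1422, 1305 and 1717 of 20580 and 1498 of 20570. The 6 of the 1 week comparison were 2 without ad libitum replicate 1, 3 without 1 week replicate 1 and 14 without 1 day replicate 2. All genes were 2305 of 20535 in the main fit, and then 1440 and 2384 of 20580 and 3054 of 20570. In the fit on 7 libraries 15 of 39 members were lower and 1 higher (Dnajb1) in the 1 day group at an unadjusted p below 0.05, beside 10.5% of all genes in either direction. The 15 were 8 cytosolic, 6 reticulum and 1 mitochondrial. In the 1 week group 16 were lower and 2 higher (Hspb1 and Bag3), beside 14.6% of all genes, and the 16 were 8 cytosolic, 6 reticulum and 2 mitochondrial. Genes of a class are not independent replicates, and no test was made of these counts.

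Hsf1 (ENSMUSG00000022556), the transcription factor that drives the heat shock genes, had 31.5, 34.5 and 29.0 CPM in the ad libitum group, 27.0, 19.7 and 27.4 CPM in the 1 day group and 27.9, 24.7 and 28.8 CPM in the 1 week group. All 6 fasted libraries lay below all 3 ad libitum libraries, the nearest by a small margin. Its log2 fold change was -0.36 (SE 0.14) after 1 day and -0.22 (SE 0.14) after 1 week, with edgeR adjusted p of 0.520 and 0.619. The fit on 7 libraries gave -0.22 (SE 0.09) and -0.15 (SE 0.09). The mRNA level of Hsf1 does not measure its activity, which is set largely on the protein.

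Cryab (ENSMUSG00000032060) is a small heat shock protein that holds unfolded clients and is abundant in oligodendrocytes. In the fit on all 9 libraries it had the largest fold change of the 39 in both fasting comparisons against ad libitum. In the fit on 7 libraries this held for 1 day only. For 1 week Hspb1 at 0.81, Hsph1 at -0.70 and Chordc1 at -0.66 were then larger than Cryab at -0.57. Cryab had 109, 113 and 99.0 CPM in the ad libitum group. The 1 day libraries had 61.6, 28.5 and 53.0 CPM and the 1 week libraries 70.1, 43.5 and 73.3 CPM. None of the 6 fasted libraries reached the lowest ad libitum library, and the replicate 2 library was the lowest of each fasted group.

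With 3 libraries a group, Cryab had a mean of 107 ± 7.20 CPM (± SD) in mice fed ad libitum, 47.7 ± 17.2 CPM after 1 day and 62.3 ± 16.4 CPM after 1 week. Its log2 fold change was -1.16 (SE 0.28) for 1 day, with an adjusted p of 0.299 by edgeR, 0.00562 by DESeq2 and 0.0668 by voom with quality weights. Without the replicate 2 libraries of both fasted groups it was -0.90 (SE 0.10), with an edgeR adjusted p of 0.0188. For 1 week it was -0.78 (SE 0.27, edgeR adjusted p = 0.329), and -0.57 (SE 0.10, adjusted p = 0.0627) without those libraries. The 1 day and 1 week groups differed by 0.38 (SE 0.27, edgeR adjusted p = 0.853), which is not resolved from 0.

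Cryab is also a gene of myelinating cells, so the oligodendrocyte markers are given beside it. The summed level of 10 such markers was 11460 to 13980 CPM in the ad libitum libraries, 9902 to 11780 CPM in the 1 day libraries and 10550 to 11980 CPM in the 1 week libraries, and none of the 10 was at 0. These ranges overlap. At an unadjusted p below 0.05 by edgeR, 5 of the 10 markers were lower in each fasted group and 0 higher, beside 4.9% of all genes lower in each. In the 1 week group 1 marker passed adjustment as lower, beside 0.0536% of all genes. Markers of other cell types were lower after 1 day too: 4 of 8 for microglia and 4 of 7 for the choroid plexus, with 0 higher. After 1 week each of these 2 lists had 1 lower and 0 higher. In bulk tissue, fewer cells of a type and less RNA per cell cannot be told apart, and the part of the markers in the Cryab result was not tested.

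Hspb1 (ENSMUSG00000004951), another small heat shock protein and one whose promoter holds the 2 heat shock elements shown above, had its lowest value in 1 day replicate 2, as Cryab did, but its highest in 1 week replicate 3. It had 5.84, 8.56 and 8.08 CPM in the ad libitum group, 6.63, 2.17 and 4.73 CPM after 1 day and 10.2, 6.27 and 15.9 CPM after 1 week. The fasted groups overlap, since 1 week replicate 2 lies below 1 day replicate 1. Its log2 fold change for 1 week against 1 day was 1.26 (SE 0.42, edgeR adjusted p = 0.853), and 0.94 without 1 day replicate 2 and 0.87 without 1 week replicate 3. Against ad libitum it was -0.73 (SE 0.42, adjusted p = 0.576) for 1 day and 0.53 (SE 0.41, adjusted p = 0.691) for 1 week, and in the fit on 7 libraries -0.40 (SE 0.26) and 0.81 (SE 0.25). Of its transcript's 31-base words, 56.7% also occur in other genes, so that reads shared with its pseudogene limit this count.

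Hspa1a and Hspa1b (ENSMUSG00000091971 and ENSMUSG00000090877) encode nearly the same stress-inducible Hsp70, and 65.4% and 68.0% of their 31-base words are shared with other genes, mostly each other. Hspa1a had 13.2, 17.4 and 11.2 CPM in the ad libitum libraries, 11.2, 7.20 and 10.6 CPM after 1 day and 9.14, 8.13 and 14.2 CPM after 1 week. Hspa1b had 5.18, 9.43 and 4.18 CPM when fed ad libitum, 5.01, 2.30 and 3.74 CPM after 1 day and 4.51, 2.59 and 12.1 CPM after 1 week. The 1 day libraries of Hspa1a lie below all ad libitum libraries by a narrow margin, and the groups of Hspa1b overlap.

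Hspa1a had a log2 fold change of -0.53 (SE 0.25, edgeR adjusted p = 0.544) for 1 day and -0.41 (SE 0.25, adjusted p = 0.605) for 1 week. For Hspa1b the values were -0.76 (SE 0.56, adjusted p = 0.633) and 0.03 (SE 0.55, adjusted p = 0.991), and without 1 week replicate 3 the second was -0.81. In the fit on 7 libraries the 1 week values were -0.24 (SE 0.23) for Hspa1a and 0.42 (SE 0.52) for Hspa1b, and the 1 day values -0.35 (SE 0.23) and -0.51 (SE 0.53). Because their reads can be divided arbitrarily, the counts of the pair were also summed, at 15.4 to 26.8 CPM in the ad libitum group, 9.50 to 16.2 CPM after 1 day and 10.7 to 26.3 CPM after 1 week. The sum gave -0.60 (SE 0.35, edgeR adjusted p = 0.581) for 1 day and -0.26 (SE 0.35, adjusted p = 0.835) for 1 week.

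Bag3 (ENSMUSG00000030847), a partner of Hsp70 in the selective autophagy of damaged clients, had 15.0, 20.1 and 21.2 CPM in the ad libitum group, 21.9, 15.1 and 17.6 CPM after 1 day and 22.2, 15.2 and 30.2 CPM after 1 week. The groups overlap, with log2 fold changes of -0.04 (SE 0.24) and 0.27 (SE 0.24) and edgeR adjusted p of 0.960 and 0.741, and of 0.08 (SE 0.19) and 0.49 (SE 0.19) in the fit on 7 libraries. The highest values of Hspa1b, Hspb1 and Bag3 were all in replicate 3 of the 1 week group. That library also had the highest summed markers of cortical neurons, at 848 CPM against 126 to 248 CPM in the others, and of the meninges, at 191 CPM against 38.4 to 143 CPM. Its mural marker sum of 286 CPM was the highest too, against 176 to 268 CPM, and the part of such tissue in these 3 genes was not tested.

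Hspa8 (ENSMUSG00000015656), the constitutive Hsp70, had 1775, 1643 and 1695 CPM in the ad libitum group, 1469, 1859 and 1482 CPM after 1 day and 1479, 1484 and 1491 CPM after 1 week. Every 1 week library was below every ad libitum library, and 1 day replicate 2 was above them all. The log2 fold change was -0.09 (SE 0.12, edgeR adjusted p = 0.783) for 1 day and -0.20 (SE 0.12, adjusted p = 0.587) for 1 week, with -0.21 (SE 0.08) for 1 day in the fit on 7 libraries. Of its 31-base words, 77.2% are shared, most with a pseudogene.

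Hsph1 (ENSMUSG00000029657), an Hsp110 that exchanges nucleotide on Hsp70, had 281, 247 and 216 CPM in the ad libitum group, 188, 272 and 198 CPM after 1 day and 149.5, 210.5 and 154 CPM after 1 week. All 1 week libraries were below the lowest ad libitum library. For 1 week the log2 fold change was -0.53 (SE 0.18, edgeR adjusted p = 0.307), and -0.70 (SE 0.11, adjusted p = 0.0538) without the replicate 2 libraries of both fasted groups. For 1 day it was -0.18 (SE 0.18, adjusted p = 0.722), and -0.36 (SE 0.11, adjusted p = 0.318) without those libraries.

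Hsp90aa1 (ENSMUSG00000021270), the inducible cytosolic Hsp90, had 916.5, 744 and 769.8 CPM in the ad libitum group, 594, 837 and 767 CPM after 1 day and 601, 662 and 634 CPM after 1 week. Its 1 week libraries did not overlap the ad libitum libraries, with a log2 fold change of -0.36 (SE 0.14, edgeR adjusted p = 0.383), whereas the 1 day value was -0.15 (SE 0.14, adjusted p = 0.709), and -0.25 (SE 0.13) in the fit on 7 libraries. Of its 31-base words 62.9% are shared with other genes, most with the gene model Gm12346, which limits this count. The constitutive Hsp90ab1 had log2 fold changes of 0.02 and -0.07 and adjusted p of 0.975 and 0.886, and the first was -0.14 in the fit on 7 libraries.

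Chordc1 (ENSMUSG00000001774), an Hsp90 co-chaperone, had the smallest p of the 39 for 1 week against ad libitum. It had 62.2, 49.1 and 52.5 CPM in the ad libitum group, 37.6, 53.3 and 41.5 CPM after 1 day and 34.5, 42.1 and 34.0 CPM after 1 week. No 1 week library reached the ad libitum range, while 1 day replicate 2 lay within it. The log2 fold change for 1 week was -0.57 (SE 0.15), with an adjusted p of 0.189 by edgeR, 0.0560 by DESeq2 and 0.0455 by voom with quality weights. For 1 day it was -0.31 (SE 0.15, edgeR adjusted p = 0.546), and -0.46 (SE 0.11, adjusted p = 0.200) in the fit on 7 libraries.

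Stip1 (ENSMUSG00000024966), which links Hsp70 to Hsp90, had 221, 221 and 203 CPM in the ad libitum group, 184, 220.2 and 172 CPM after 1 day and 168, 185.5 and 167 CPM after 1 week. The 1 week libraries were all below the ad libitum libraries, at a log2 fold change of -0.31 (SE 0.11, edgeR adjusted p = 0.339), against -0.16 (SE 0.11, adjusted p = 0.608) after 1 day, which was -0.27 (SE 0.08) in the fit on 7 libraries. Ahsa1, which starts the Hsp90 ATPase, also did not overlap after 1 week, at -0.20 (SE 0.13, adjusted p = 0.614).

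Dnajb1 (ENSMUSG00000005483), a J-domain partner of Hsp70, was the cytosolic member with all 1 day libraries above ad libitum. It had 39.2, 38.8 and 38.9 CPM in the ad libitum group, 43.0, 41.5 and 46.7 CPM after 1 day and 39.7, 35.8 and 40.3 CPM after 1 week. Each 1 day library was above each ad libitum library and above each 1 week library. The log2 fold change for 1 day was 0.17 (SE 0.09, edgeR adjusted p = 0.570), and for 1 week against 1 day it was -0.18 (SE 0.09, adjusted p = 0.853). Against ad libitum the 1 week value was -0.01 (SE 0.09, adjusted p = 0.978), and 0.05 in the fit on 7 libraries. Of the remaining cytosolic members, Hspa4, Hspa4l, Dnaja1 and Dnajb4 had log2 fold changes of -0.07 to 0.19 after 1 day and -0.29 to 0.05 after 1 week, with overlapping groups. In the fit on 7 libraries Hspa4 was at -0.19 and -0.26, Dnaja1 at -0.04 and -0.08, Dnajb4 at 0.07 and -0.0059, and Hspa4l at -0.22 after 1 day.

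**Figure D3:**
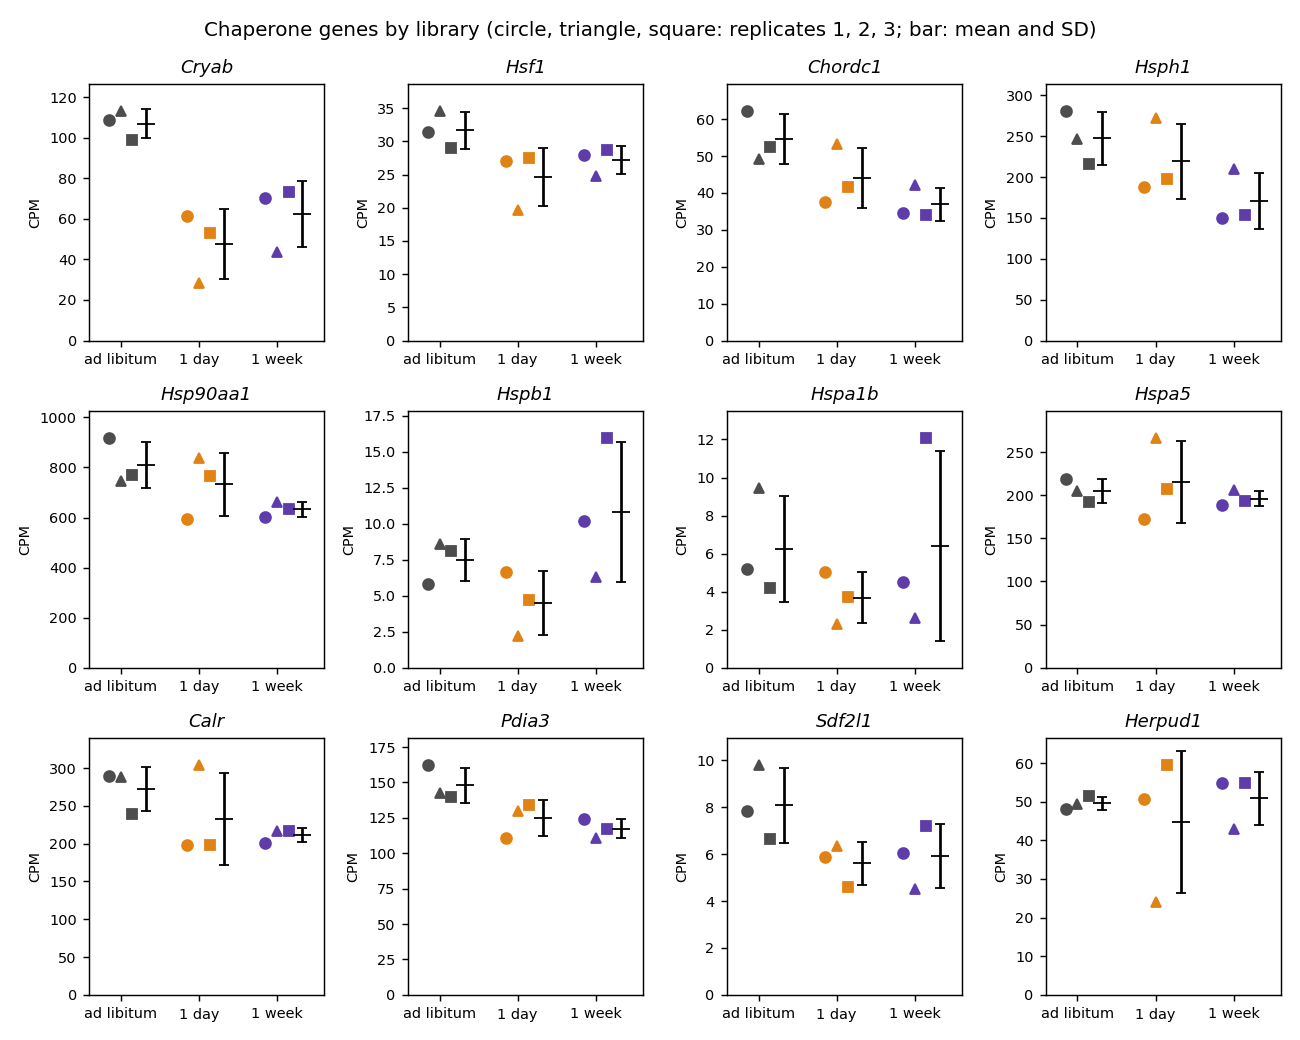
CPM of 12 members in each library (circle, triangle and square for replicates 1, 2 and 3) with the mean and SD of each group, one panel per gene and separate linear axes from 0. In the Cryab panel the fasted libraries sit between 28.5 and 73.3 CPM, below the ad libitum libraries at 99.0 to 113 CPM.

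Hspd1 (ENSMUSG00000025980), the mitochondrial Hsp60, had 158, 143 and 149 CPM in the ad libitum group, 149, 245 and 138 CPM after 1 day and 129, 186.5 and 129 CPM after 1 week. The replicate 2 libraries of the fasted groups were the highest of the 9. The log2 fold change was 0.24 (SE 0.22, edgeR adjusted p = 0.695) after 1 day and -0.02 (SE 0.22, adjusted p = 0.986) after 1 week, and without those libraries it was -0.07 and -0.21. Of its 31-base words 55.8% are shared with other genes, most with a pseudogene. Its co-chaperonin Hspe1, which shares the promoter window printed above, and the mitochondrial Hsp70 gene Hspa9 had their highest values in 1 day replicate 2 as well, at 42.5 CPM and 305 CPM. Hspe1 had log2 fold changes of 0.12 and -0.20 (SE 0.23 for both), and -0.24 and -0.35 in the fit on 7 libraries. Hspa9 had 0.21 and 0.11 (SE 0.14 for both), and 0.03 for both in that fit.

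Of the reticulum members, Hspa5 (ENSMUSG00000026864), also called BiP, is the Hsp70 that binds unfolded secretory proteins and the sensors of the unfolded protein response. It had 219, 205 and 192 CPM in the ad libitum group, 173, 266 and 207 CPM after 1 day and 189, 206 and 193 CPM after 1 week. The groups overlap, and its log2 fold changes of 0.07 (SE 0.15) and -0.07 (SE 0.15) had edgeR adjusted p of 0.869 and 0.906. The 95% intervals, from -0.26 to 0.39 for 1 day and from -0.39 to 0.26 for 1 week, give the range of changes these libraries leave possible. The 1 day value was -0.11 (SE 0.10) in the fit on 7 libraries.

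Hsp90b1 (ENSMUSG00000020048), the reticulum Hsp90 or Grp94, had 324, 277 and 272 CPM in the ad libitum group, 219, 381 and 252 CPM after 1 day and 228, 263 and 217 CPM after 1 week. All 1 week libraries lay below the ad libitum libraries, and 1 day replicate 2 was the highest of the 9. Its log2 fold change was -0.04 (SE 0.19, edgeR adjusted p = 0.957) after 1 day and -0.30 (SE 0.19, adjusted p = 0.611) after 1 week, and without 1 day replicate 2 the first was -0.31. Hyou1, an exchange factor for Hspa5, was at 0.09 and -0.04 (adjusted p of 0.802 and 0.926), and at -0.02 and -0.13 in the fit on 7 libraries.

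Pdia3 (ENSMUSG00000027248), a disulfide isomerase that works with the lectins Calr and Canx on glycoproteins, was the reticulum member lower in all 6 fasted libraries. It had 162, 143 and 139 CPM in the ad libitum group, 111, 129.9 and 134 CPM after 1 day and 124, 111 and 117 CPM after 1 week. The gap between the highest fasted library and the lowest ad libitum library was from 134 to 139 CPM. Its log2 fold change was -0.24 (SE 0.11, edgeR adjusted p = 0.533) after 1 day and -0.34 (SE 0.11, adjusted p = 0.276) after 1 week.

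Calr (ENSMUSG00000003814), a soluble lectin that binds calcium, had 289, 289 and 239 CPM in the ad libitum group, 198, 303 and 198 CPM after 1 day and 201, 217 and 216.5 CPM after 1 week. The 1 week libraries were below all ad libitum libraries, and 1 day replicate 2 was above them. The log2 fold change was -0.22 (SE 0.17, edgeR adjusted p = 0.633) after 1 day and -0.36 (SE 0.17, adjusted p = 0.454) after 1 week. Without the replicate 2 libraries of both fasted groups it was -0.46 (SE 0.10, adjusted p = 0.167) and -0.37 (SE 0.10, adjusted p = 0.176).

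Canx (ENSMUSG00000020368) is the membrane-bound lectin. It had 520.5, 503 and 516 CPM in the ad libitum group, 482, 808 and 534 CPM after 1 day and 492, 627 and 447 CPM after 1 week. The groups overlap, with log2 fold changes of 0.24 (SE 0.19, edgeR adjusted p = 0.650) and 0.02 (SE 0.19, adjusted p = 0.979). Both signs turned in the fit on 7 libraries, to -0.01 (SE 0.08) and -0.12 (SE 0.08). Whether Canx and Calr differ in response was not tested.

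Pdia4 (ENSMUSG00000025823) had 50.2, 48.5 and 49.8 CPM in the ad libitum group, 38.0, 50.4 and 40.9 CPM after 1 day and 42.7, 39.8 and 44.3 CPM after 1 week. It did not overlap ad libitum after 1 week, at a log2 fold change of -0.23 (SE 0.12, edgeR adjusted p = 0.514), and was at -0.20 (SE 0.12, adjusted p = 0.576) after 1 day, or -0.33 (SE 0.07, adjusted p = 0.187) in the fit on 7 libraries. Pdia6 (ENSMUSG00000020571) had 71.2, 74.1 and 62.2 CPM in the ad libitum group, 57.6, 80.5 and 60.7 CPM after 1 day and 55.7, 65.5 and 56.6 CPM after 1 week. Its groups overlap, with log2 fold changes of -0.06 and -0.22 (SE 0.14 for both, adjusted p of 0.879 and 0.616), and the first was -0.22 (SE 0.09) in the fit on 7 libraries. P4hb, the classical disulfide isomerase, had log2 fold changes of -0.02 and 0.0045, and of -0.06 and 0.04 in that fit.

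Sdf2l1 (ENSMUSG00000022769), a small protein that keeps Hspa5 cycling, had 7.82, 9.78 and 6.63 CPM in the ad libitum group, 5.88, 6.35 and 4.59 CPM after 1 day and 6.04, 4.50 and 7.21 CPM after 1 week. The 1 day libraries lay below the ad libitum libraries and the 1 week libraries overlapped them. The log2 fold change was -0.53 (SE 0.22, edgeR adjusted p = 0.528) for 1 day and -0.45 (SE 0.22, adjusted p = 0.494) for 1 week, which was -0.27 (SE 0.20) in the fit on 7 libraries. Manf and Creld2, secreted proteins of the unfolded protein response, were at 0.19 and 0.17 after 1 day and at 0.13 and 0.06 after 1 week, with overlapping groups. In the fit on 7 libraries they were at 0.012 and 0.030 after 1 day and at 0.07 and -0.07 after 1 week.

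Dnajb9 (ENSMUSG00000014905), a J-domain protein that recruits Hspa5 to the stress sensor IRE1, had 34.3, 27.6 and 31.9 CPM in the ad libitum group, 28.9, 42.3 and 38.6 CPM after 1 day and 32.4, 37.6 and 30.9 CPM after 1 week. The groups overlap, at 0.23 (SE 0.15, edgeR adjusted p = 0.604) and 0.11 (SE 0.15, adjusted p = 0.848) on the log2 scale, and at 0.11 (SE 0.14) and 0.030 (SE 0.14) in the fit on 7 libraries. Dnajc3, another J-domain partner of Hspa5, was above all ad libitum libraries in the 1 week group, at 0.18 (SE 0.13, adjusted p = 0.668). The J-domain gene Dnajb11 had overlapping groups, at 0.15 and 0.12, and at -0.15 and -0.03 in the fit on 7 libraries.

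Sel1l (ENSMUSG00000020964), a scaffold of the ligase that removes misfolded reticulum proteins, had 209, 195 and 203 CPM in the ad libitum group, 178, 218 and 187 CPM after 1 day and 178, 185 and 175 CPM after 1 week. The 1 week libraries were below all ad libitum libraries, at a log2 fold change of -0.18 (SE 0.10, edgeR adjusted p = 0.574), and the 1 day value was -0.06 (SE 0.10, adjusted p = 0.833), or -0.15 (SE 0.07) in the fit on 7 libraries. Herpud1, which serves the same degradation, was at 48.0 to 51.4 CPM in the ad libitum group and 43.0 to 54.9 CPM after 1 week, and at 24.1 CPM in 1 day replicate 2 against 50.8 and 59.4 CPM in the other 1 day libraries. Its log2 fold changes were -0.15 and 0.04 (SE 0.27 for both), and 0.15 and 0.16 in the fit on 7 libraries.

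Xbp1 (ENSMUSG00000020484) encodes the transcription factor whose mRNA is spliced by IRE1, and gene counts do not show its splicing. It had 50.5, 51.8 and 47.4 CPM in the ad libitum group, 44.5, 40.0 and 49.3 CPM after 1 day and 52.2, 42.0 and 49.9 CPM after 1 week. The groups overlap, at log2 fold changes of -0.16 (SE 0.12, edgeR adjusted p = 0.623) and -0.05 (SE 0.12, adjusted p = 0.905), and of -0.09 (SE 0.08) and 0.05 (SE 0.08) in the fit on 7 libraries.

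Counted over members, 5 were below all ad libitum libraries in the 1 day group and 1 was above. The background was 10.3% of all genes below and 8.17% above. In the 1 week group 13 were below and 1, Dnajc3, above, with backgrounds of 11.5% and 10.9%. The 13 were 8 cytosolic members (Hsf1, Hspa8, Hsph1, Hsp90aa1, Cryab, Stip1, Chordc1 and Ahsa1) and 5 reticulum members (Hsp90b1, Calr, Pdia3, Pdia4 and Sel1l). All 6 fasted libraries were below all ad libitum libraries for Hsf1, Cryab and Pdia3, beside 4.87% of all genes, and above them for 0 members, beside 3.41% of genes. A group that does not overlap is not a test, and none of these members passed edgeR's adjusted threshold.

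**Figure D4:**
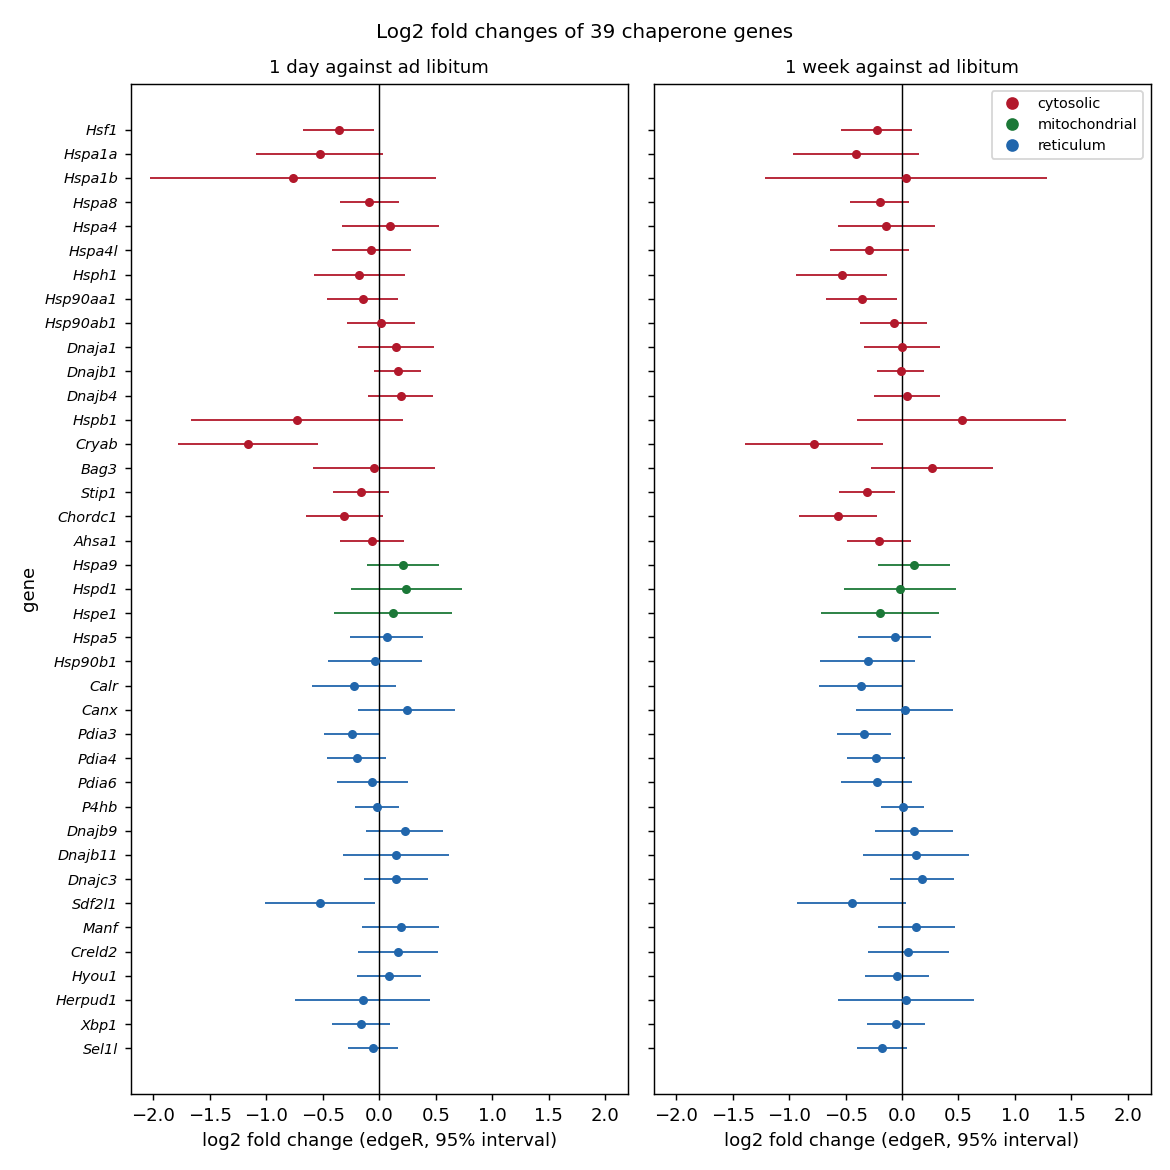
Log2 fold change of each member with its 95% interval from edgeR, not adjusted for the number of genes, for 1 day and 1 week against ad libitum, in classes. The intervals of Cryab and of the reticulum member Pdia3 lie below 0 in both comparisons, and most intervals of each class include 0.

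Other genes of the same systems, from lists drawn up by role, gave 0 calls by edgeR in any comparison. Of 47 other cytosolic chaperones and co-chaperones, 2 were higher and 1 lower at an unadjusted p below 0.05 after 1 day, and 3 were higher and 0 lower after 1 week. Over all genes these shares were 4.37% higher and 4.9% lower after 1 day and 6.33% and 4.9% after 1 week. The 1 lower gene was Serpinh1, whose protein resides in the reticulum although the list holds it with the other heat shock proteins, so 0 cytosolic genes of the list were lower. Fkbp5, a glucocorticoid-induced Hsp90 co-chaperone, had the largest of these, a log2 fold change of 1.90 (SE 0.31) for 1 week with an adjusted p of 0.05004, just above the threshold, and 1.18 (SE 0.31, adjusted p = 0.853) for 1 week against 1 day. Hspa2, an Hsp70 gene, was at 0.52 (SE 0.16, adjusted p = 0.432) after 1 day and 0.63 (SE 0.16, adjusted p = 0.172) after 1 week. Serpinh1, the collagen chaperone, was at -0.65 (SE 0.17, adjusted p = 0.359) after 1 day, and Hspb8, a small heat shock protein that works with Bag3, was at 0.57 (SE 0.21, adjusted p = 0.853) for 1 week against 1 day.

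Of 64 other reticulum genes, 5 were higher and 3 lower at an unadjusted p below 0.05 after 1 day, which is 7.81% and 4.69%. Over all genes the shares were 4.37% and 4.9%. After 1 week 2 were higher and 2 lower, which is 3.12% each, beside 6.33% and 4.9% of all genes. Atf6b, a relative of ATF6, was at -0.44 (SE 0.13, edgeR adjusted p = 0.418) after 1 day and 0.42 (SE 0.13, adjusted p = 0.853) for 1 week against 1 day. The calcium-binding Nucb2 was at 0.61 (SE 0.19, adjusted p = 0.434) after 1 day. After 1 week, Txndc12, a thioredoxin of the reticulum, was at -0.30 (SE 0.11, adjusted p = 0.334) and Ppp1r15a, which reverses the translation block of the stress response, at 0.27 (SE 0.11, adjusted p = 0.398). The cargo receptor Lman1 was at -0.27 (SE 0.11, adjusted p = 0.853) for 1 week against 1 day.

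Of 11 other mitochondrial chaperones and proteases, 0 passed an unadjusted p of 0.05 in any comparison. The smallest p-values belonged to Lonp1 and Clpx after 1 day, at 0.28 (SE 0.15) and 0.32 (SE 0.19), and to Trap1 and Spg7 after 1 week, at -0.16 (SE 0.08) and 0.18 (SE 0.11). Between the fasted groups they belonged to Grpel2 and Yme1l1, at -0.17 (SE 0.12) and -0.27 (SE 0.23).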

How the data were processed

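Per the labels' protocols, polyA RNA of substantia nigra lysate was made into libraries with a directional kit. The submitters' processing notes name Salmon, DESeq2 1.40.2 and the builds GRCm39 and mm39; no source names the annotation or how transcripts were summed to genes. The deposited values are estimated counts per gene, already whole numbers, in 20591 rows.

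The counts were scaled by TMM and tested in edgeR 4.0.16 (R 4.3.3). The low-count filter (minimum count 10, minimum total 15) removed 56 rows and left 20535 genes. One quasi-likelihood model was fitted to all 9 libraries, with two-sided tests, Benjamini-Hochberg adjustment over all genes and a threshold of 0.05. The model was also run on counts simulated from its own fitted spread. No library was made to stand apart in those counts, so the run does not show how the test behaves on these data. Every pair of libraries differed beyond sampling noise (chi-square per gene 26.4 or more).

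Members and lists were chosen with earlier results of these data known. The value in every library is given for a fixed set of 14 members and for the 4 smallest p-values of the cytosolic and reticulum classes in each comparison; from the other lists, the 2 smallest are named. Alternatives were DESeq2 1.42.0, limma 3.58.1 voom with quality weights, RLE factors, other filters, the 6 libraries of a comparison alone, a replicate block, the summed Hspa1a and Hspa1b counts and each library left out. A fit without both replicate 2 libraries of the fasted groups was added after seeing the data. Levels per kilobase and shared 31-base words used GENCODE M21 by gene identifier.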

Additional observations from a re-analysis of the deposited data

How the results depend on the processing

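Counts of calls depended on the tool and on single libraries. Members called were 1 for 1 day against ad libitum with DESeq2 and 1 for 1 week against ad libitum with voom and quality weights. For 1 day against ad libitum, all genes called were 187 with DESeq2, 26 with its 6 libraries alone, 2 with the replicate block and 57 with voom. The 1 week counts were 467, 155, 32 and 218. DESeq2 called 3 between the fasted groups. The replicate block changed no member's call. The main fit did not take replicate numbers as pairs. Deviations from the group means correlated at -0.198 to 0.437 between same-numbered libraries of different groups. The 0.437 was between 1 day replicate 2 and 1 week replicate 2, the highest of all pairs. Whether same-numbered libraries share a batch or a pairing was not tested. Leaving out 1 library at a time, or both replicate 2 libraries of the fasted groups, gave 0 to 1 members called and 0 to 50 genes for 1 day against ad libitum, 8 to 121 genes for 1 week against ad libitum and 0 to 3 genes for 1 week against 1 day. The 1 day count was 0 without ad libitum replicate 1, 2 or 3, and 2 without 1 day replicate 1 or 3. The 1 week count was 8, 11 and 9 without ad libitum replicates 1, 2 and 3, and 121 without 1 day replicate 2. The class medians between the fasted groups then ran from -0.18 to 0.0089 (cytosolic) and from -0.17 to 0.044 (reticulum), the upper values without 1 day replicate 2.

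Directions depended on single libraries too. In the fit without both replicate 2 libraries 12, 7 and 7 of 39 members changed sign (1 day against ad libitum, 1 week against ad libitum, 1 week against 1 day), 20 members in at least 1 comparison. Over all alternatives the counts were 18, 12 and 24, and without 1 day replicate 2 alone 20 of 39 changed sign between the fasted groups. DESeq2, RLE factors, no low-count filter and the 6 libraries alone changed 0 signs. With voom, 1 day against ad libitum, Hspa4 was at -0.12, Hsp90ab1 at -0.096, Bag3 at 0.064, Hspd1 at -0.0017, Hspe1 at -0.16, Hspa5 at -0.080, Dnajb11 at -0.086 and Herpud1 at 0.040. In the 1 week group voom gave -0.049 for Dnaja1, 0.010 for Dnajb1, -0.048 for Canx and -0.039 for Creld2, the replicate block -0.17 for Hspa1b, -0.011 for Dnaja1 and -0.0011 for Canx, a filter of 1 CPM in at least 6 libraries 0.0045 for Dnajb1, and the sum with Hspa1a -0.26 for Hspa1b. Between the fasted groups, values and ranges are given here and below only for the fixed set and the members with the smallest p-values. Of 39 members voom changed the sign of 6 there, and among those given Hspa1a was at -0.030.

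With libraries left out, 1 day against ad libitum ran from -0.19 to 0.25 for Hspa4, -0.22 to 0.014 for Hspa4l, -0.14 to 0.098 for Hsp90ab1, -0.036 to 0.26 for Dnaja1, -0.20 to 0.077 for Bag3, -0.21 to 0.019 for Ahsa1, -0.066 to 0.40 for Hspd1, -0.24 to 0.29 for Hspe1, -0.11 to 0.20 for Hspa5, -0.31 to 0.12 for Hsp90b1, -0.014 to 0.39 for Canx, -0.22 to 0.030 for Pdia6, -0.057 to 0.024 for P4hb, -0.15 to 0.29 for Dnajb11, -0.0094 to 0.24 for Dnajc3, -0.015 to 0.15 for Hyou1, -0.40 to 0.15 for Herpud1 and -0.15 to 0.0013 for Sel1l. The 1 week ranges were -0.81 to 0.45 for Hspa1b, -0.077 to 0.064 for Dnaja1, -0.040 to 0.049 for Dnajb1, -0.0061 to 0.12 for Dnajb4, -0.21 to 0.076 for Hspd1, -0.12 to 0.13 for Canx, -0.023 to 0.036 for P4hb, -0.029 to 0.22 for Dnajb11, -0.068 to 0.16 for Creld2, -0.13 to 0.031 for Hyou1, -0.018 to 0.16 for Herpud1 and -0.12 to 0.045 for Xbp1. Between the fasted groups they were -0.16 to 0.28 for Hspa1a, -0.048 to 1.17 for Hspa1b, -0.17 to 0.019 for Hspa8, -0.45 to 0.053 for Hspd1, -0.27 to 0.054 for Hspa5, -0.42 to 0.0097 for Hsp90b1, -0.37 to 0.045 for Canx, -0.25 to 0.0086 for Pdia6 and -0.087 to 0.35 for Sdf2l1. The cause of these reversals was not tested, and 3 libraries a group limit the size of change that can be called.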
